A study of Mus musculus with 3 samples.

Results

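The genes described here encode the proteasome and its regulators, measured by total RNA-seq in T cells from mouse spleen. They were chosen by symbol, as every gene whose name starts with Psma to Psmg followed by a digit and that has a protein-coding transcript in the annotation. That rule found 50 genes of 55536 annotated genes, with no measured value used in the choice. One of them, Psmc3ip, was matched by its symbol only and encodes a meiotic recombination factor. The other 49 are proteasome subunits, activators, an inhibitor or assembly chaperones.

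All 3 libraries form 1 group, replicates 1, 2 and 3. The cells were primary splenic T cells with CD3 in their label, from female B6CASTF1/J mice aged 66 days, hybrids with a C57BL/6 dam and a CAST/EiJ sire. Each library was made from 300 ng of RNA plus ERCC spike-ins. The labels name no treatment or second group. The 3 libraries have separate biosample records under 1 donor record, so the spread between them may be partly technical. Estimated counts over annotated genes were 16.88, 14.99 and 16.20 M in replicates 1, 2 and 3. The T-cell label was checked against marker genes. All 12 T-cell markers were at 10 TPM or more, summing to 3124.73 to 3388.88 TPM per library. The 8 B-cell markers summed to 11.75 to 20.53 TPM, and the 6 dendritic-cell markers to 3.16 to 5.64 TPM. Of the 7 other marker lists, the highest sums were 32.65 to 63.81 TPM for 4 erythroid genes and 51.18 to 55.38 TPM for 4 stromal and endothelial genes, of which Pecam1 alone averaged 51.8 TPM. TPM is a transcript level scaled for transcript length and library size, so TPM values can be compared between genes.

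The proteasome is the large protease that degrades ubiquitin-tagged proteins. Its 20S core stacks outer rings of alpha subunits on inner rings of beta subunits, and 3 of the beta subunits in each inner ring cut peptide bonds. A 19S cap, built of an ATPase base and a lid, recognises, unfolds and feeds in substrates. In lymphocytes, and in other cells exposed to interferon, the constitutive catalytic subunits Psmb5, Psmb6 and Psmb7 can be replaced by the immunoproteasome subunits Psmb8, Psmb9 and Psmb10. The replaced core favours peptides that fit MHC class I molecules. The activators Psme1 and Psme2 together form the interferon-inducible PA28 alpha-beta cap.

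The members were expressed well above the usual level of a protein-coding gene. Of the 50 genes, 41 (82%) reached 10 TPM or more in all 3 libraries, against 25.4% of the 22028 protein-coding genes in the annotation. A further 7 stayed at 1 TPM or more in every library but were below 10 TPM in at least 1: Psmc3ip and the chaperones Psmd5, Psmd9, Psmd10, Psmg1, Psmg2 and Psmg3. Psma8 and Psmb11 were below 1 TPM. Together the members summed to 1822.18, 1853.61 and 1712.79 TPM in replicates 1, 2 and 3, which was 0.508% ± 0.012 of all protein-coding TPM (SD, n = 3). The median member had 29.5 TPM, against a median of 13.5 TPM over the 9851 protein-coding genes that reached 1 TPM in every library. The genes lie on 16 chromosomes, with 10 of them on chromosome 11.

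**Figure D1:**
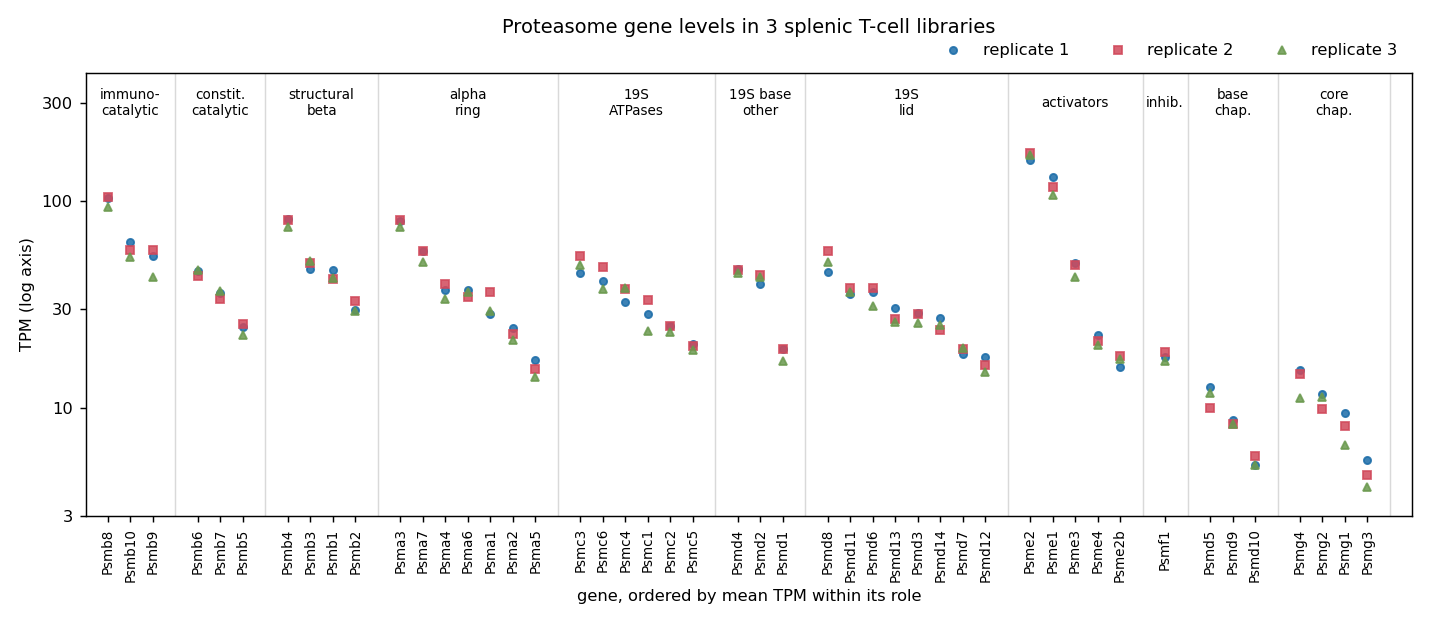
TPM (log axis) of 47 proteasome genes in replicates 1, 2 and 3, grouped by role and ordered by mean within each role; Psma8, Psmb11 and Psmc3ip lie below the axis range or outside these roles and are not drawn. Psme2, Psme1 and Psmb8 stand highest, and the assembly chaperones stand lowest.

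The promoters of 4 genes that enter the ratios below are shown first. They are the immunoproteasome genes Psmb9 and Psmb8, the activator gene Psme1 and the constitutive gene Psmb5. They are RefSeq windows on GRCm38.p6, from 250 bases before to 50 bases after the RefSeq start. At least 1 such window was found for 42 members on chromosomes other than 18. The Psmb9, Psmb8 and Psme1 windows lie wholly inside the GENCODE gene spans given below for these genes. Their RefSeq starts therefore lie downstream of the outermost GENCODE starts, and the TPM values rest on GENCODE. Capitals mark every match, on either strand, to 5 motifs: the interferon response element core GAAANNGAA, the gamma-activated site TTCNNNGAA, the antioxidant response element core TGACNNNGC, the CCAAT box CCAAT and the GC box GGGCGG. No matches overlapped in these 4 windows. The Psmb10 window, not printed here, held 0 matches to each of the 5 motifs. Psmb9 lies at chr17:34187281-34187580 on the minus strand, Psmb8 at chr17:34197945-34198244 on the plus strand, Psme1 at chr14:55578244-55578543 on the plus strand and Psmb5 at chr14:54617946-54618245 on the minus strand.
Psmb9: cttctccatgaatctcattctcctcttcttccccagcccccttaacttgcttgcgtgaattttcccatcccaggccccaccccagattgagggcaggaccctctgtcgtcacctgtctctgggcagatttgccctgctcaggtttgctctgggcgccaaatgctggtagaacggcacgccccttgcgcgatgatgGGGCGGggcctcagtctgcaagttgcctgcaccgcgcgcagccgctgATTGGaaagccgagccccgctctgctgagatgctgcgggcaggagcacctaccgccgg
Psmb8: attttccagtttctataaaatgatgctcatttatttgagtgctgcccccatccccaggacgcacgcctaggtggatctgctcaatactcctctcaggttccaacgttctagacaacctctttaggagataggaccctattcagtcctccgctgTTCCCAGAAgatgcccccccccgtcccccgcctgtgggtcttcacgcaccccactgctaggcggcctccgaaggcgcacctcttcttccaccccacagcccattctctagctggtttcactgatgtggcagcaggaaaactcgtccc
Psme1: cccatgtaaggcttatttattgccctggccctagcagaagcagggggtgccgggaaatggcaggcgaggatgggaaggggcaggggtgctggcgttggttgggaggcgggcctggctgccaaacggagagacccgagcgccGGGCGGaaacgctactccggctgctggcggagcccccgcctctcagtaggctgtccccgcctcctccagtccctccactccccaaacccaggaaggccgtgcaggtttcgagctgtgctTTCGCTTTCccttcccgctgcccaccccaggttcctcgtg
Psmb5: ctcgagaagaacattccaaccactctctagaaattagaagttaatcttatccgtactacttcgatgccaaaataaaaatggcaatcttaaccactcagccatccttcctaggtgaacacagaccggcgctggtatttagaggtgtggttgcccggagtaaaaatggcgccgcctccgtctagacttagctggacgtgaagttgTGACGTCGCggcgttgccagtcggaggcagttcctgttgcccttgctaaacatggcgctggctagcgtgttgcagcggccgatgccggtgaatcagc
The Psmb9 window held a CCAAT box at base 243 and a GC box at base 196, counted from the first base printed. The same stretch serves the neighbouring gene Tap1, which is read in the opposite direction. The Tap1 window shares 275 bases with that of Psmb9, and 225 bases lie between the RefSeq starts. Psmb8 held a gamma-activated site match at base 154, Psme1 an interferon response element match at base 261 and a GC box at base 142, and Psmb5 an antioxidant response element match at base 204. Over the 45 member windows, 15.6% held the interferon element letters (Psmb3, Psmb4, Psmc2, Psmd4, Psmd9, Psme1 and Psmg4), against 8.56% of 32851 windows of the same length. The gamma-activated site was in 6.67% of member windows (Psmb8, Psmd2 and Psmg1) and 8.3% of all windows. The antioxidant element was in 13.3% of member windows and 12.4% of all windows, the CCAAT box in 33.3% and 37.4%, and the GC box in 53.3% and 35.7%. A match of letters is a description and does not show that a factor binds there.

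The question for the catalytic subunits was whether these T cells carry more immunoproteasome or more constitutive transcript at each catalytic site. Over all transcript entries of each gene, Psmb8 was higher than Psmb5 and Psmb10 higher than Psmb7 in every library, by 4.05-fold and 1.62-fold on average (ratios of TPM + 1), while Psmb9 and Psmb6 overlapped. Psmb8, Psmb9 and Psmb10 together made up 66.7% ± 2.1 of the TPM of the 6 genes (SD, n = 3), at 67.5%, 68.2% and 64.3% in replicates 1, 2 and 3.

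At the chymotrypsin-like site, Psmb8 (chr17:34197721-34201454, plus strand) had 104.29, 104.61 and 94.01 TPM, against 24.74, 25.42 and 22.45 TPM for Psmb5 (chr14:54614119-54618022, minus strand). No Psmb8 library came near a Psmb5 library. The mean log2 ratio of Psmb8 to Psmb5, taken on TPM + 1, was 2.02 ± 0.02 (SD, n = 3). Psmb8 accounted for 80.7% ± 0.19 of the TPM of this pair over all entries (SD, n = 3).

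At the caspase-like site, Psmb9 (chr17:34181987-34187764, minus strand) had 54.50, 57.97 and 43.07 TPM, against 46.19, 43.73 and 46.55 TPM for Psmb6 (chr11:70525367-70527858, plus strand). Psmb9 was higher in replicates 1 and 2 and lower in replicate 3, so the groups overlapped. The mean log2 ratio of Psmb9 to Psmb6 was 0.17 ± 0.26 (SD, n = 3), which does not exceed the spread between libraries.

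At the trypsin-like site, Psmb10 (chr8:105935735-105938444, minus strand) had 63.38, 58.05 and 53.64 TPM, against 35.82, 33.70 and 36.94 TPM for Psmb7 (chr2:38588036-38644087, minus strand). All Psmb10 values lay above all Psmb7 values. The mean log2 ratio of Psmb10 to Psmb7 was 0.70 ± 0.15 (SD, n = 3).

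Ordered by mean TPM, the 6 genes ran Psmb8, Psmb10, Psmb9, Psmb6, Psmb7 and Psmb5. In that order the ranges of 2 neighbouring pairs overlapped, Psmb10 with Psmb9 and Psmb9 with Psmb6, and the other 3 neighbouring pairs did not. Compared within each library, Psmb10 was above Psmb9 in 3 of 3, though only 58.05 against 57.97 TPM in replicate 2. Psmb9 was above Psmb6 in 2 of 3. An exact two-sided sign-flip test over the 3 libraries gave p = 0.25 for Psmb8 to Psmb5 and for Psmb10 to Psmb7, and p = 0.5 for Psmb9 to Psmb6. With 3 libraries no p below 0.25 is possible, and over the 4 ratios tested (with Psme1 to Psme3, below) the Benjamini-Hochberg values of these exact tests were 0.333, 0.333 and 0.5.

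These orders depended on which transcript entries were summed. The annotation lists several entries per gene, some of them protein-coding and others retained-intron, processed or nonsense-mediated-decay forms. With protein-coding entries only, Psmb8 had 54.72, 47.87 and 38.72 TPM, still above Psmb5, for which every entry is protein-coding. The log2 ratio of Psmb8 to Psmb5 was then 0.92 ± 0.18 (SD, n = 3), a fold of 1.89 in place of 4.05 on TPM + 1. Psmb9 had 31.98, 35.21 and 25.44 coding-entry TPM and Psmb6 a mean of 30.9 ± 2.0, giving a log2 ratio of -0.0093 ± 0.22. Psmb10 had 20.40, 20.55 and 18.16 coding-entry TPM, below the 33.4 ± 1.7 of Psmb7 in all 3 libraries, and the log2 ratio turned to -0.74 ± 0.16 (SD, n = 3 each). The immunoproteasome share of catalytic TPM was then 52.3% ± 3.2 (SD, n = 3).

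**Figure D2:**
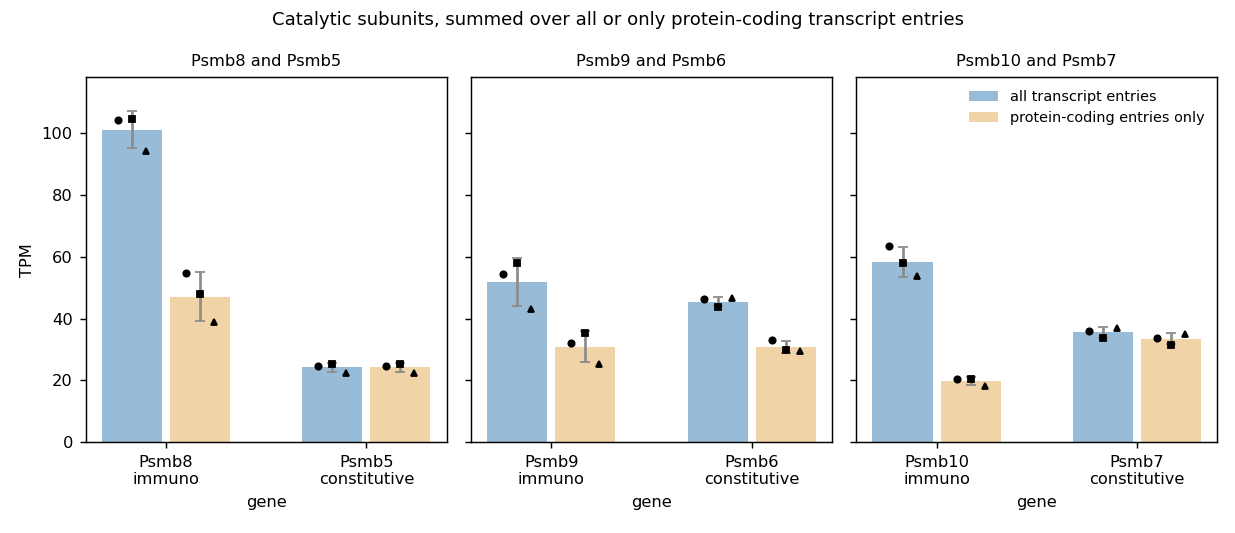
TPM of each immunoproteasome subunit (left) and its constitutive counterpart (right), summed over all transcript entries (blue) or protein-coding entries only (orange); bars are means, whiskers 1 SD of 3 libraries, and circle, square and triangle are replicates 1, 2 and 3. Psmb8 stays above Psmb5 either way, and Psmb10 changes from above Psmb7 to below it.

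The entries behind those sums differed strongly between the genes. In Psmb8, the 840-base coding entry Psmb8-203 held 44.8 ± 7.4 TPM and the retained-intron entry Psmb8-205 held 34.1 ± 3.7 TPM. The 1628-base coding entry Psmb8-201, the only one of the gene's coding entries in the GENCODE basic set, held 2.26 ± 0.60 TPM in this table and 35.2 ± 4.1 TPM in a second deposited quantification of the same libraries (SD, n = 3 each). Counting basic-set coding entries of the first table alone, the log2 ratio of Psmb8 to Psmb5 was -2.97 ± 0.21. In that table the order at this site therefore also turned with the entries counted. In the second quantification it did not: Psmb8-201 lay above Psmb5, whose entries are all in the basic set, at 25.7 ± 2.4 TPM (SD, n = 3). In Psmb9, the 433-base coding entry Psmb9-202 held 16.99 ± 4.62 TPM and the 1352-base Psmb9-204 held 12.8 ± 1.9 TPM. In Psmb10, the 1311-base coding entry Psmb10-201 held 19.7 ± 1.3 TPM and the 426-base processed entry Psmb10-203 held 22.2 ± 2.4 TPM (SD, n = 3 each). Short entries weigh more in TPM than in reads: Psmb10-203 took 119 estimated counts on average, against 393 for Psmb10-201.

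Psmb9 and Tap1 also share 212 exonic bases on opposite strands, and whether the counting used strand is not given in the sources used here, so reads in that overlap could belong to either gene. Tap1, a subunit of the transporter that brings peptides into the endoplasmic reticulum, had 73.24, 64.94 and 61.57 TPM. Tap2, its partner subunit, had 68.41, 66.03 and 50.70 TPM. Both were lowest in replicate 3, as were Psmb8, Psmb9 and Psmb10. Tap1, Psmb8 and Tap2 follow each other on the plus strand of chromosome 17, with 495 bases between Tap1 and Psmb8 and 2072 bases between Psmb8 and Tap2. In replicate 3 several lists also had their lowest sums, while others were lowest in replicate 2. The T-cell markers summed to 3388.88, 3338.96 and 3124.73 TPM in replicates 1, 2 and 3, the B-cell markers to 15.52, 20.53 and 11.75, the dendritic-cell markers to 5.64, 4.74 and 3.16 and the erythroid markers to 40.77, 63.81 and 32.65 TPM. The class I processing genes summed to 4302.22, 4208.58 and 3834.09 TPM. Lowest in replicate 2 were the monocyte and macrophage markers (32.7, 25.99 and 29.79 TPM) and the natural killer markers (25.23, 19.92 and 21.73). So were the platelet markers (6.54, 3.81 and 6.18), the stromal and endothelial markers (55.38, 51.18 and 51.22) and the proteasome gene regulators (229.17, 217.68 and 218.41). In replicate 3 the median shift from a gene's mean log2(TPM + 1) was -0.07 over the 48 members tested for spread and -0.03 over all 13280 genes tested. On read counts scaled for library size (CPM), the median shift in replicate 3 was smaller, at -0.012 over the members and 0.003 over all genes. The CPM shift of the members in replicate 1 was -0.015. The part of these shifts in the lower values was not tested. In bulk RNA, fewer cells of a type and less RNA per cell cannot be told apart.

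Psmb11, the catalytic subunit of the thymoproteasome found in cortical thymic epithelium, was at 0.01, 0 and 0 TPM in the gene table. Psma8, the alpha subunit of the testis proteasome, was at 0 TPM in all 3 libraries and also at 0 in the second quantification. Psmb11 reached a mean of 0.59 ± 0.09 TPM in the second quantification (SD, n = 3). A count of 0 allows a true share of up to 1.78e-05%, 2.00e-05% and 1.85e-05% of the counts of replicates 1, 2 and 3, counting error only.

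Among the alpha-ring subunits, which form the gated outer rings, Psma3 was highest and Psma5 lowest. Psma3 had 80.73, 81.31 and 74.88 TPM and Psma5 had 17.07, 15.43 and 14.15 TPM, a 5.1-fold gap between subunits that each occupy 1 position per ring. Between them, Psma7 averaged 55.4 ± 3.8, Psma4 36.9 ± 3.1, Psma6 36.0 ± 1.5, Psma1 31.3 ± 4.2 and Psma2 22.9 ± 1.6 TPM (SD, n = 3 each). The ranges of Psma4 and Psma6 overlapped, as did those of Psma6 and Psma1. Among the beta subunits without catalytic activity, Psmb4 had 81.93, 81.72 and 75.15 TPM, and Psmb2, the lowest, had 29.61, 32.92 and 29.33 TPM. Psmb3 averaged 49.6 ± 2.3 and Psmb1 43.7 ± 2.5 TPM. The place of Psmb4 depended on the entries counted. With protein-coding entries only, Psmb4 averaged 25.1 ± 2.5 and Psmb2 24.5 ± 0.9 TPM. Both lay below Psmb3 at 43.3 ± 1.7 and Psmb1 at 41.9 ± 1.7 TPM (SD, n = 3 each).

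The 6 ATPases of the 19S base, which unfold substrates, spanned a narrower range of 2.5-fold over all entries of the gene table. Psmc3 led with 44.97, 54.14 and 49.46 TPM, and Psmc5 was lowest with 20.44, 19.94 and 18.94 TPM. Psmc6, Psmc4, Psmc1 and Psmc2 averaged 42.3 ± 5.4, 36.2 ± 3.0, 28.4 ± 4.8 and 24.4 ± 1.0 TPM in that order (SD, n = 3 each). The median level of the alpha ring exceeded that of the ATPases by 0.28, 0.03 and 0.17 on the log2(TPM + 1) scale in replicates 1, 2 and 3, a mean of 0.16 ± 0.13. With protein-coding entries only, that difference was 0.46 ± 0.03 (SD, n = 3). The narrower range of the ATPases was limited to all entries. By mean coding-entry TPM, the ATPases ran from 8.75 (Psmc6) to 29.18 (Psmc3) and the alpha ring from 15.55 (Psma5) to 52.05 (Psma3).

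Of the other base subunits, the ubiquitin receptor Psmd4 had 47.28, 46.53 and 44.75 TPM and the scaffold Psmd1 had 19.27, 19.25 and 16.86 TPM, with the scaffold Psmd2 at 42.3 ± 2.2 TPM. In the lid, Psmd8 was highest with 45.55, 57.73 and 51.10 TPM and Psmd12 lowest with 17.54, 16.09 and 14.91 TPM. Psmd14, the lid's deubiquitinase, had 27.19, 23.93 and 25.23 TPM. The remaining lid subunits Psmd3, Psmd6, Psmd7, Psmd11 and Psmd13 averaged between 18.9 (Psmd7) and 36.8 TPM (Psmd11).

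The dedicated assembly chaperones were low in these cells, though above Psma8, Psmb11 and Psmc3ip. Psmd5, Psmd9 and Psmd10, which help build the ATPase base, had medians of 8.72, 8.31 and 8.34 TPM in replicates 1, 2 and 3. Psmd5 was highest of them at 12.54, 9.96 and 11.79 TPM, and Psmd10 lowest at 5.29, 5.85 and 5.25 TPM. Psmg1 to Psmg4 guide alpha-ring assembly. Psmg4 had 15.19, 14.53 and 11.10 TPM, Psmg3 5.56, 4.71 and 4.14 TPM, and Psmg2 and Psmg1 averaged 10.9 ± 0.9 and 8.1 ± 1.4 TPM (SD, n = 3 each). Over all entries of the gene table, every chaperone mean lay below that of the lowest detected core or 19S subunit, Psma5 at 15.6 TPM. In the second quantification Psmg4 averaged 23.8 TPM, above Psma5 at 20.1 TPM. With protein-coding entries only, Psmg4, Psmg2 and Psmd5 (13.6, 9.39 and 8.84 TPM) lay above Psmc6 (8.75 TPM).

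In the gene table, Psme2 and Psme1 were the most abundant members. In the second quantification Psme1 was highest with a mean of 172.1 TPM, followed by Psmb8 at 124.1 TPM and Psme2 at 123.8 TPM. In the gene table Psme2 had 158.74, 172.26 and 167.16 TPM and Psme1 131.48, 117.15 and 107.18 TPM, ranking 257th and 383rd among the 22028 protein-coding genes. Psme1 and Psme2 lie 5911 bases apart on chromosome 14, at chr14:55578123-55581529 on the plus strand and chr14:55587441-55591113 on the minus strand. Psme3, which forms the nuclear PA28 gamma cap and is not part of the alpha-beta cap, had 50.48, 49.28 and 42.85 TPM. The log2 ratio of Psme1 to Psme3 was 1.30 ± 0.07 (SD, n = 3), with Psme1 higher in 3 of 3 libraries and p = 0.25 by the exact two-sided sign-flip test, the smallest p possible (Benjamini-Hochberg 0.333). Psme4, the large PA200 activator, had 22.63, 21.05 and 20.13 TPM, and Psmf1, the PI31 regulator first described as an inhibitor, had 17.53, 18.53 and 16.85 TPM.

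The order of Psme1 and Psme2 was not the same in both quantifications. In the gene table Psme1 stood at 0.717 ± 0.099 of Psme2, and in the second quantification at 1.39 ± 0.04 (SD, n = 3 each), with all 3 libraries on the same side each time. A 185-base retained-intron entry, Psme2-203, held 64.3 ± 11.3 TPM from 90.1 estimated counts in the first table and 0 TPM in the second. Summing coding entries only, Psme1 stood at 0.885 ± 0.001 of Psme2 in the first table and 0.889 ± 0.063 in the second. Psme2b, an 837-base gene on chromosome 11 whose single entry has no intron, had 15.76, 17.87 and 17.32 TPM in the gene table and 32.9, 28.9 and 30.9 TPM in the second quantification. It was the only member whose deposited posterior SD exceeded 5% of its count (6.35%), so reads it may share with a similar sequence leave its level uncertain.

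Over the members as a whole, the second quantification lay above the gene table by a median ratio of 1.32 for the 41 genes at 10 TPM or more, against 1.30 for all 5595 protein-coding genes at that level. Members at 1 TPM or more whose ratio passed 1.5 are listed next, and the share of all genes past 1.5 is not given here. The second quantification gave 90.8, 80.5 and 71.9 TPM for Psme3, 76.7, 72.9 and 59.9 TPM for Psmc6, and 46.7, 35.5 and 40.9 TPM for Psmd14. It gave 28.6, 21.9 and 20.9 TPM for Psmg4 and 15.3, 10.3 and 15.04 TPM for Psmd9, the last against 8.72, 8.31 and 8.34 TPM in the gene table; Psme2b is given above. Psmb8, Psmb9 and Psmb10 had ratios of 1.23, 1.16 and 1.32, and Psmb5, Psmb6 and Psmb7 of 1.06, 1.16 and 1.40.

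**Figure D3:**
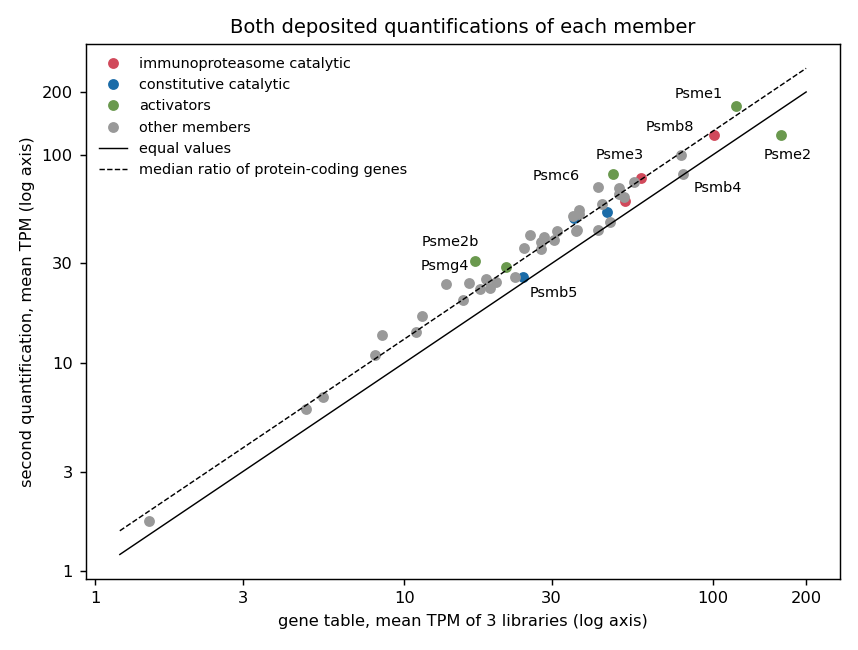
Mean TPM of each member at 1 TPM or more in the gene table (x, log axis) and in the second quantification (y, log axis), coloured by role, with lines of equal values and of the median ratio of 1.30. Psme2 is the member farthest below the line of equal values, and Psme2b and Psmg4 have the highest ratios.

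Entries other than protein-coding ones took a sizeable part of many members, as they did of genes in general. For the 41 members at 10 TPM or more, protein-coding entries held a median of 73.6% of a gene's TPM, against 69.2% for the 5595 protein-coding genes at that level. They held under 50% in 6 of these members (14.6%), against 24.8% of all such genes. Those 6 were Psmc6 at 21.01%, Psmb4 at 31.5%, Psmb10 at 33.8%, Psmd6 at 45.04%, Psmb8 at 46.5% and Psmf1 at 47.2%. In the second quantification 6 of the 41 members were again under 50%, against 1517 of the 5595 genes. Of these members 4 were shared: Psmb4, Psmb10, Psmc6 and Psmd6. By estimated counts, 4 of the 41 members were under 50%, against 691 of the 5595 genes. Those 4 were Psmb8, Psmb9, Psmc6 and Psmf1, and Psmc6 was the only member under 50% by all 3 measures. Psma2, Psma5, Psmb5, Psmd12, Psmg4 and Psme2b had all of their TPM in protein-coding entries.

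**Figure D4:**
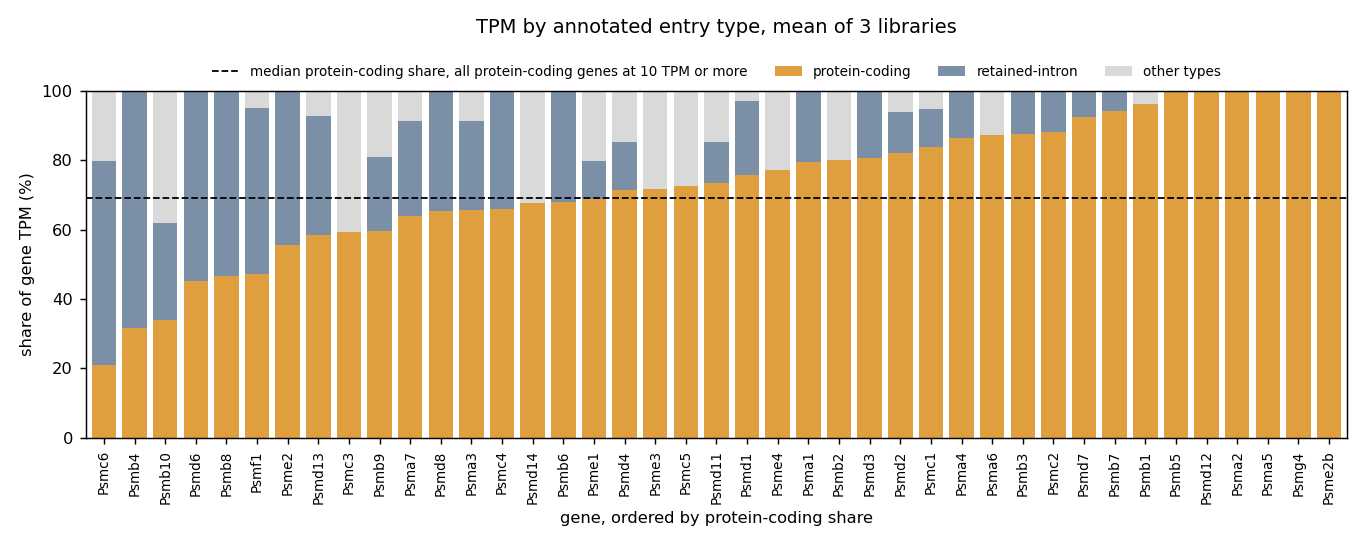
Share of each gene's TPM in protein-coding (orange), retained-intron (blue-grey) and other (light grey) entries, as means of 3 libraries, for the 41 members at 10 TPM or more. The dashed line is the median protein-coding share of all protein-coding genes at that level, 69.2%; Psmc6, Psmb4, Psmb10, Psmd6, Psmb8 and Psmf1 are under 50%.

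No member tested was called more variable between libraries than other genes of like abundance. Spread was tested with edgeR by comparing each gene's residual variation over the 3 libraries with the trend of genes at the same level. Of 48 members tested, 0 passed an adjusted p of 0.05, against 75 of 13280 genes (0.565%). At an unadjusted p under 0.05, 1 of the 48 members passed (Psma1), against 755 of the 13280 genes. DESeq2's dispersion outliers also held 0 members, against 125 of the 13280 genes. Psma1 had 28.43, 36.20 and 29.36 TPM, with replicate 2 highest (edgeR adjusted p = 0.804). Psmc4 had 32.69, 37.74 and 38.17 TPM (edgeR adjusted p = 0.973), and Psmd8 was next (edgeR adjusted p = 0.974). For Psmb9, the spread in TPM was wider than that in reads: read counts scaled for library size (CPM) were 51.0, 49.7 and 44.0 (edgeR adjusted p = 0.996), while TPM was highest in replicate 2.

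Genes of connected pathways were also described, from lists of known partners. All 9 genes of a list of proteasome gene regulators were at 10 TPM or more, summing to 229.17, 217.68 and 218.41 TPM. The nardilysin protease Nrd1 averaged 60.3 ± 5.4 TPM, the unfoldase Vcp 40.4 ± 2.7 and the deglycosylase Ngly1 19.8 ± 2.0, with Ddi2 at 12.97 ± 1.21 and Keap1 at 12.6 ± 0.6 lowest (SD, n = 3 each). Nfe2l1, the transcription factor that raises proteasome genes when proteasome activity is limiting, had 19.32, 22.65 and 16.44 TPM. Of 15 measured proteasome-bound and assembly genes, all were at 10 TPM or more. The ubiquitin receptor Adrm1 averaged 42.0 ± 4.2, the shuttle factor Rad23b 37.2 ± 2.6 and the scaffold Ecpas 33.0 ± 5.3 TPM, with Ube3c at 14.5 ± 1.0 and the deubiquitinase Uchl5 at 11.03 ± 0.11 lowest. Pomp, the maturation factor of the 20S core, had 26.60, 22.72 and 31.78 TPM.

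Of the 13 interferon and class I regulators described, 12 were at 10 TPM or more. Jak1, the kinase of interferon receptors, averaged 183 ± 4 TPM, the transcription factor Irf1 158 ± 17 and the class I transactivator Nlrc5 135 ± 13, with Ifngr2 at 16.5 ± 2.1 and Irf8 at 8.23 ± 1.95 lowest. Of the 11 class I processing genes, H2-K1 averaged 1715.2 ± 121.3, B2m 897 ± 46 and H2-D1 882 ± 36 TPM, with the trimming peptidase Erap1 at 42.9 ± 3.7 and Tapbpl at 17.2 ± 1.2 lowest. Among the 4 ubiquitin genes described, Rps27a averaged 714 ± 55 and Ubb 411 ± 17 TPM, with the activating enzymes Uba1 at 76.9 ± 2.7 and Uba6 at 5.94 ± 0.28 lowest (SD, n = 3 each). Of the 52 genes described from these 5 lists, 0 passed the edgeR spread test at an adjusted p of 0.05, against 0.565% of all genes. At an unadjusted p under 0.05, 2 of the 52 passed (Irf8 and Ifngr1), against 755 of 13280 genes. DESeq2's dispersion outliers held 0 of the 52, against 125 of 13280 genes.

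**Figure D5:**
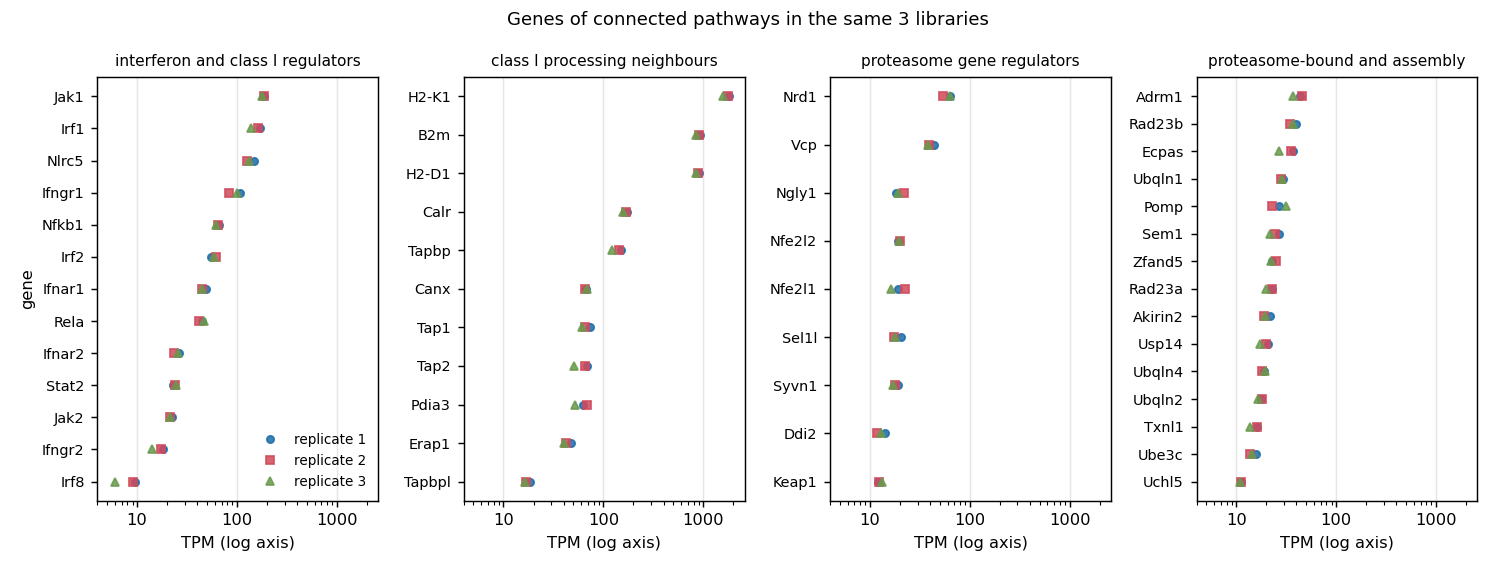
TPM (log axis) of genes outside the proteasome in 4 connected lists, with replicates 1, 2 and 3 as blue circles, red squares and green triangles. H2-K1, B2m and H2-D1 stand highest, and Irf8 is lowest in replicate 3.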

How the data were processed

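The 3 libraries are total RNA-seq of splenic T cells, made with a directional kit per the labels' protocols, and there is 1 group. For each library the authors deposited a gene table and a transcript table of estimated counts, TPM and FPKM, made on mm10 with GENCODE M21 per the README files deposited with them, and a second transcript quantification of estimated counts and TPM. Per the file headers these tables also hold each entry's percent of its gene's TPM, which was recomputed here, and a posterior SD of the count, used here as a score of reads that several genes share. The sources used here name neither the aligner nor the quantifiers. Reads went to 1 reference genome, and parental alleles were not analysed here.

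Genes were matched by identifier, spike-ins and entries named by a number were left out, and the second quantification was summed per gene. Log ratios used TPM + 1. The 4 gene ratios were compared by exact two-sided sign-flip tests over libraries. Expected counts were rounded to whole numbers for the spread test in edgeR 4.0.16 (TMM, filterByExpr, robust quasi-likelihood dispersion against its trend, Benjamini-Hochberg), with DESeq2 1.42.0 as an alternative, and the code was tested on simulated data. Estimated counts per library were 14.99 to 16.88 M, and floors for a count of 0 are 3 counts. Each member is accounted for by role, and values per library are given for catalytic genes, activators, the highest and lowest of each role and members that differ between quantifications by over 1.5 times. Marker and pathway lists were matched by symbol; AI314180 and Paaf1 did not match, and some listed genes are not reported here. The members, lists and tests were chosen with earlier results of these data known. Coordinates are 1-based.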

Additional observations from a re-analysis of the deposited data

How the results depend on the processing

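The choice of transcript entries turned catalytic ratios, and the choice of quantification turned the order of Psme1 and Psme2 over all entries (Psme1 at 1.39 of Psme2 in the second quantification and 0.717 in the gene table). With protein-coding entries only, the log2 ratio of Psmb8 to Psmb5 was 0.92, that of Psmb9 to Psmb6 was -0.0093 and that of Psmb10 to Psmb7 -0.74, the immunoproteasome share of catalytic TPM was 52.3%, and the alpha-ring minus ATPase difference was 0.46. Further alternatives were chosen after seeing the data. With basic-set coding entries of the first table the ratios were -2.97 for Psmb8 to Psmb5, -1.21 for Psmb9 to Psmb6 and -0.74 for Psmb10 to Psmb7. The share was then 28.2%. In the second quantification the basic-set coding entry of Psmb8 had 35.2 TPM, above the 25.7 TPM of Psmb5. With coding entries of the second quantification the ratios were 1.64 for Psmb8 to Psmb5, 0.68 for Psme1 to Psme3 (a fold of 1.60 in place of 2.46), -0.011 for Psmb9 to Psmb6 and -0.60 for Psmb10 to Psmb7, and the share was 58.2%. The cause was not tested. FPKM, posterior mean TPM, other pseudocounts and the second quantification over all entries kept the direction of the 4 ratios tested. Leaving out each library in turn gave 2.01 to 2.03 for Psmb8 to Psmb5, 0.06 to 0.32 for Psmb9 to Psmb6, 0.65 to 0.79 for Psmb10 to Psmb7 and 1.27 to 1.33 for Psme1 to Psme3; Psmb9 to Psmb6 was 0.06 without replicate 2 and 0.32 without replicate 3. The alpha-ring minus ATPase difference was 0.10 without replicate 1. The count of genes called for spread was 303 with no filter on low counts, 28 with a non-robust fit, 125 by DESeq2's dispersion outliers, and 35 (without replicate 3) to 85 (without replicate 2), with 43 without replicate 1, and members called stayed at 0 throughout. No paired comparison of groups was possible because there is only 1 group. The sign-flip tests paired both genes of a ratio within each library. With 3 libraries no exact test can pass 0.05.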
